A study of Mus musculus with 6 samples.

Results

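The Rab GTPases are the largest family of small GTPases that steer membrane traffic, and here they are described in cells of mouse bladder epithelium divided by a DsRed reporter. Members were all genes of the array whose symbol is Rab followed by a number, from Rab1a to Rab43, with at most a letter or a letter and a digit behind it, read from probe sets annotated to that gene alone. Genes of Rab partners, such as Rab11fip or Rab3gap genes, were not members. This gave 58 genes with 131 probe sets, of 18193 genes with such a probe set. The mean signal passed the filter on dim probe sets in 51 of them, on 104 probe sets. The other 7 (Rab3c, Rab6b, Rab9b, Rab26, Rab32, Rab37 and Rab39) lay too low to be tested.

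RNA came from bladders of mice at postnatal day 7, with the strain given as FVB/N x C57BL/6, the sex as male and the reported gene as the Upk1b allele B6;129P-Upk1btm1Zhang/J in all 6 samples. The epithelium was loosened with trypsin, lifted off and digested to single cells, and the cells were divided into DsRed-positive and DsRed-negative, with 3 arrays each, numbered 1, 2 and 5 in both groups. The sample titles call the groups uroplakin +ve and -ve, but the labels do not say what drives DsRed or how the cells were parted. Samples were not pooled. No label names the animals, so each p-value reflects only how much these 6 samples vary, which may be technical, and 3 arrays a group limit the precision. The comparison asks which transcripts set cells with the reporter apart from cells without it.

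A Rab protein is a switch. Guanine nucleotide exchange factors (GEFs) load it with GTP on a membrane, where it recruits effectors such as motors and tethers, and GTPase-activating proteins (GAPs) turn it off, after which GDI takes it back into the cytosol. Each organelle of the secretory and endocytic routes carries its own set of Rabs. In the urothelium, which lines the bladder, superficial cells store uroplakin plaques in fusiform vesicles and insert them into the surface as the bladder fills, and Rab8a, Rab11a and Rab27b are known to act on this route.

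The arrays were checked first. The 10 urothelial markers were all called higher in DsRed-positive cells, with a summed deposited signal of 285146 to 437898 against 15392 to 35464. Among these 10 is Upk1b, the reported gene (48415 to 98990 against 2797 to 9626), so its direction may follow from the division itself. All 9 fibroblast and matrix markers tested were called lower, with 15569 to 29337 against 772126 to 1727430. Of the markers tested, 5 of 7 for smooth muscle, 5 of 6 for endothelium, 6 of 8 for leukocytes and 3 of 5 for mast cells were lower too, while the mural marker Rgs5 was higher. The DsRed-negative arrays thus carried less urothelial and more stromal and blood cell RNA, although the label calls both groups bladder epithelial cells. In bulk samples fewer cells of a type and less RNA per cell cannot be told apart. The arrays numbered 1 went against the label male: their Xist signal was 45699 (DsRed-negative) and 28183 (DsRed-positive), against 203 to 546 in the other 4 arrays, and their Eif2s3y signal was 3.83 and 31.2, against 3309 to 8043. Results without both of these arrays are given below.

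Promoter sequences are shown for members at the extremes of the comparison and for a sister gene. Rab25 had the largest increase, Rab11a is its close relative with a smaller one, Rab34 had the largest decrease, and Rab31 fell among the endosomal Rabs. Each line gives the 250 bases before the outermost RefSeq start (GRCm38.p6), 5′ to 3′ along the gene. Capitals mark matches, on either strand, to the motifs AACCGGTT (Grainyhead), AGATAA (bound by zinc finger factors of the GATA family), CCGGAAGT (ETS), GGGCGG (Sp and Kruppel-like), GCCNNNGGC (AP-2), CACCTG (E-box), CCAAT (the CCAAT box) and TATAAA (the TATA box), which may overlap one another. The windows are chr3:88548280-88548529 (minus strand) for Rab25, chr9:64737757-64738006 (minus) for Rab11a, chr11:78188177-78188426 (plus) for Rab34 and chr17:65772753-65773002 (minus) for Rab31.
Rab25: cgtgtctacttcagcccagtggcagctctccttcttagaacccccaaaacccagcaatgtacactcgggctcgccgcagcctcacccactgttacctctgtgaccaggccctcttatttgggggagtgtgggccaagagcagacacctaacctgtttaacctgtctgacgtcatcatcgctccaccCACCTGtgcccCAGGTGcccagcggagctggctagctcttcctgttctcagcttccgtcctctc
Rab11a: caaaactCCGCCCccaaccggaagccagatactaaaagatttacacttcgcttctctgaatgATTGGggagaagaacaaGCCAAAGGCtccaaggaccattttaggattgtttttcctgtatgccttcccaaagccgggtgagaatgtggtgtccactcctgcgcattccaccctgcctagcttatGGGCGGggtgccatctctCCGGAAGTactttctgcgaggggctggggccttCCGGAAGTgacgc
Rab34: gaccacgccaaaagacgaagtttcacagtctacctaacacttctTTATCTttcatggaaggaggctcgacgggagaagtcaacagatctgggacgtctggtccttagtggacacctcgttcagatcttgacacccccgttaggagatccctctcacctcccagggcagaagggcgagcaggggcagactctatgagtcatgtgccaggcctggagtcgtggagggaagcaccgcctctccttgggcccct
Rab31: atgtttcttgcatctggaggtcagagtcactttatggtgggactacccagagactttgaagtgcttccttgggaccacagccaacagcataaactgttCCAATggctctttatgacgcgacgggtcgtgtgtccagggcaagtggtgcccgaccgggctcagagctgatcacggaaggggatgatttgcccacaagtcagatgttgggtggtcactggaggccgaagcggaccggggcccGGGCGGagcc

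The sister genes did not share a promoter pattern. The Rab25 window held 2 matches to CACCTG, at bases 64 to 59 and 53 to 48 before the start, and no other match, and 2.04% of 27025 windows of the same length held 2 or more matches to that motif. The Rab11a window held 2 matches to CCGGAAGT, at 46 to 39 and 13 to 6, and 0.178% of all windows held 2 or more. It also held 2 of GGGCGG, 1 of GCCNNNGGC and 1 of CCAAT. Shares for 2 or more matches were computed only for CACCTG and CCGGAAGT, not for GGGCGG, and are no test of rarity. Rab34 had a single match to AGATAA, and Rab31 had 1 of GGGCGG and 1 of CCAAT. Of the 58 members, 48 had an entry, with a median GC content of 60.6% against 52.0% over all windows, and GGGCGG was found in 33 of the 48 (68.8%, against 33% of all windows). CACCTG was found in 7 of 48 (14.6%, against 17.1%), CCAAT in 22 (45.8%, against 34.5%), GCCNNNGGC in 14 (29.2%, against 13.5%), TATAAA in 4 (8.33%, against 13.0%), CCGGAAGT in 2 (4.17%, against 2.92%), AGATAA in 1 (2.08%, against 10.2%) and AACCGGTT in 0 (against 0.126%). A match is a string of letters and was not tested as a binding site.

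Across the family, DsRed-positive cells had 6 Rab genes higher and 6 lower, and 39 did not pass the test. Rab25, Rab27b, Rab15, Rab3b, Rab11a and Rab9 were higher, and Rab34, Rab38, Rab31, Rab7b, Rab2b and Rab4a were lower. The 12 called genes are 23.5% of the 51 tested, close to the 20.5% called among all 14222 genes (9.21% higher and 11.3% lower), so the family as a whole did not stand out by its share of calls. A gene was called where limma's p, adjusted by Benjamini-Hochberg across every probe set tested, was under 0.05. Before adjustment 19 of the 51 were under 0.05, beside 35.2% of all genes. The median log2 change over the Rab genes was -0.02, beside 0.04 over all genes, and a change of at least 1 on the log2 scale was found in 37.3% of them, beside 37.8% of all genes. Groups did not overlap in 27 of the 51, beside 43.4% of all genes. The spread within the family was wide, from -3.28 to 5.98.

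Of 16 Arf and Arl genes tested, other small GTPases of membrane traffic, limma called 1 higher and 0 lower, with a median log2 change of 0.01 and 4 under an unadjusted p of 0.05. The difference between the families was not tested. The balance of directions among Rab genes depended on scaling: 6 of the 12 calls were higher under quantile normalization (45.0% of the calls over all genes). Left as deposited, the values gave 46.2% (37.6% over all genes), and median centring of the arrays gave 64.3% (64.7% over all genes). The median of all genes moved to -0.17 and 0.37 with these scalings, and that of the Rab genes moved with it, to -0.25 and 0.29.

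**Figure D1:**
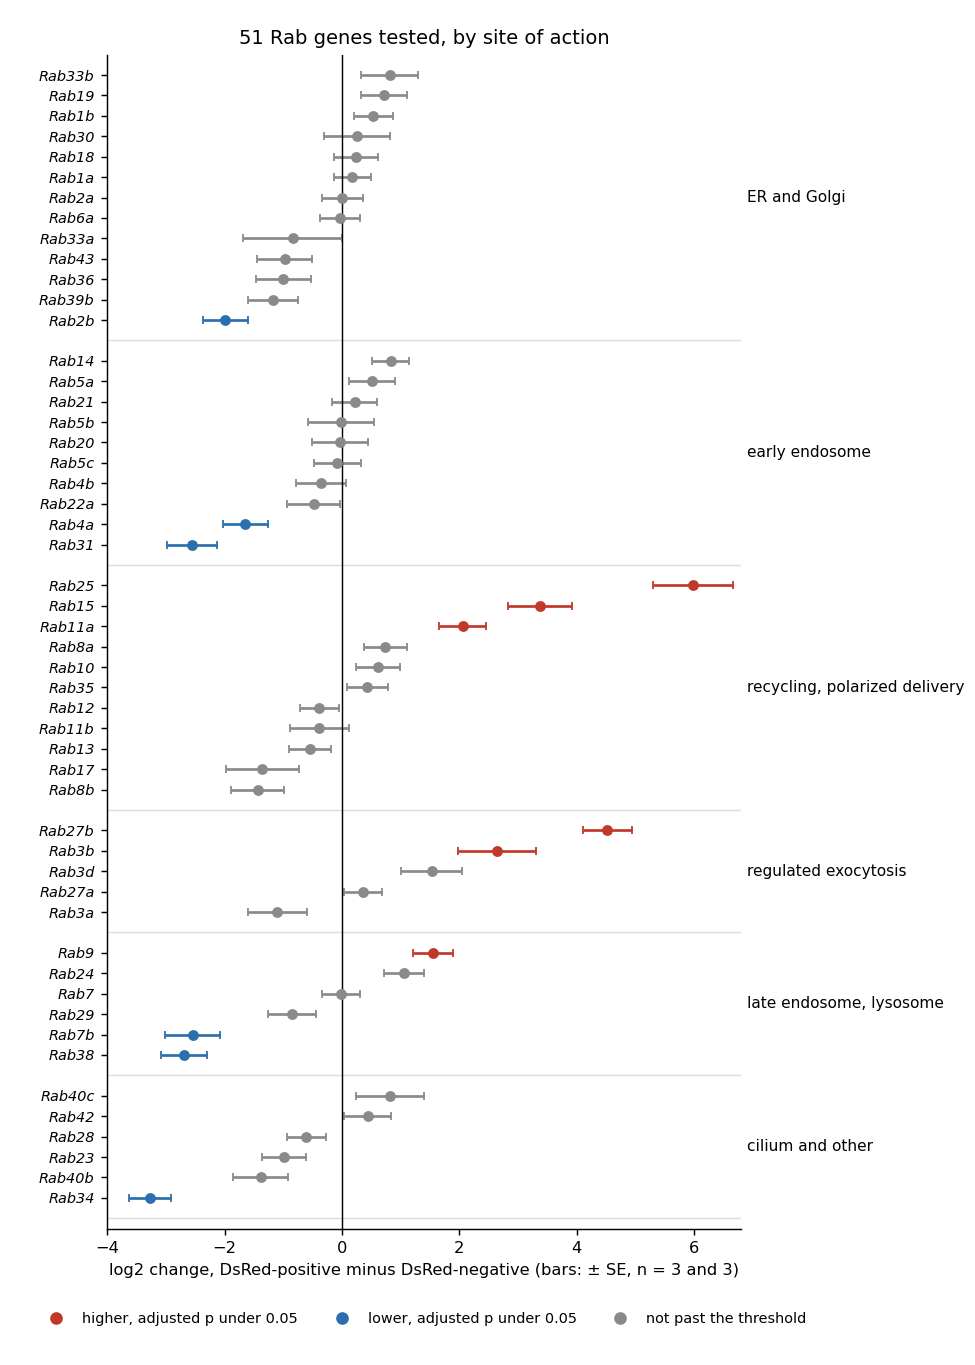
Log2 change (DsRed-positive minus DsRed-negative) of the 51 Rab genes tested, grouped by the site where each is known to act, with bars of ± SE from the limma fit on 3 and 3 arrays. The 6 higher genes (red) lie in recycling, exocytosis and late endosome groups, and the 6 lower ones (blue) in the ER and Golgi, early endosome, late endosome and cilium groups. Counts per group are small and were not tested against the shares over all genes (9.21% higher and 11.3% lower).

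Among Rabs of recycling and polarized delivery, 3 of 11 tested were higher, 0 lower and 8 not called, and the median log2 change was 0.43. The 3 were Rab25, Rab15 and Rab11a. By unadjusted p alone, 1 more of the 11, Rab8b, was under 0.05. The counts by role, here and below, are small and were not tested against the shares over all genes (9.21% higher and 11.3% lower).

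Rab25, the epithelial member of the Rab11 group that works in apical recycling, had normalized log2 signals of 13.32, 13.21 and 12.82 in DsRed-positive arrays 1, 2 and 5. Their DsRed-negative counterparts read 8.62, 5.76 and 7.02. Every DsRed-positive array lay far above every DsRed-negative one, and DsRed-negative 2 and 5 lay below the control level, the 95th percentile of 27 control probe sets with no matching RNA (7.69 and 8.03 on these arrays). On the log2 scale it changed by 5.98 ± 0.68 (SE), or 63.3-fold (adjusted p = 0.00114), a size that rests partly on signal below the control level. Rab25 has 1 probe set, whose mean in DsRed-negative cells (7.13) is under the filter of 7.18, so it passed through the group in which it was high.

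Rab15, a Rab of endocytic recycling, stood at 14.15, 13.50 and 14.26 on the log2 scale in DsRed-positive arrays 1, 2 and 5, and at 11.36, 9.46 and 10.97 without DsRed. All 6 signals were above the control level and the groups did not overlap. On the log2 scale the change was 3.37 ± 0.55 (SE), or 10.4-fold (adjusted p = 0.00534).

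Rab11a, which marks recycling endosomes in most cells, read 15.38, 14.97 and 15.35 in DsRed-positive arrays 1, 2 and 5 against 13.51, 12.52 and 13.52 in the DsRed-negative ones. It was plainly present in both groups, unlike Rab25, and higher in every DsRed-positive array. On the log2 scale it changed by 2.05 ± 0.40 (SE), or 4.16-fold (adjusted p = 0.0113), and its other probe set gave 2.57. The call was lost without DsRed-positive 1 (adjusted p = 0.0567, within a range of 0.00132 to 0.0923 over 20 alternatives).

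The rest of this group included close relatives of the called genes. Rab11b had a log2 change of -0.39 ± 0.50 and its groups overlapped. Rab8b, a Rab of polarized delivery, had a value of -1.44 ± 0.46 (adjusted p = 0.0712) with DsRed-positive signals of 12.97, 12.34 and 12.91 all below the DsRed-negative 15.02, 13.90 and 13.61, and it was called lower under 3 alternatives. Rab8a, which acts on fusiform vesicles, had a value of 0.74 (adjusted p = 0.212), and passed under median centring. Rab17, an epithelial Rab of transcytosis, had a value of -1.35 (adjusted p = 0.179), so it did not share the increase of Rab25. Rab10, Rab12, Rab13 and Rab35 had values between -0.55 and 0.62.

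Of the 8 Rabs of regulated exocytosis 5 passed the filter, of which 2 were higher, 0 lower and 3 not called. Their median log2 change was 1.53, but over all 8 members, the untested Rab3c (-1.36), Rab26 (-0.77) and Rab37 (-1.62) included, it was -0.20. Both groups of arrays were at or below the control level for Rab3c. Rab26 and Rab37 were at or below it in all DsRed-positive arrays.

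Rab27b, which docks and delivers vesicles at the apical surface, read 15.80, 15.13 and 14.97 in DsRed-positive arrays 1, 2 and 5 against 11.35, 10.73 and 10.25 in their counterparts. The arrays kept a wide gap between groups with little spread inside them, and the DsRed-negative signal was still above the control level. The difference of 4.52 ± 0.42 on the log2 scale, 23.0-fold, had the smallest p of the family (adjusted p = 4.83e-04). Of its 4 probe sets 3 were called, at 4.52, at 4.60 and, with every DsRed-negative array at or below the control level, at least 9.92-fold higher. The last of these passed the filter only through the DsRed-positive arrays. The remaining one, with the suffix _x_at that marks possible cross-hybridization, gave 0.37.

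Rab3b, found in epithelia and secretory cells, was dim throughout: 8.96, 9.84 and 7.13 in DsRed-positive arrays 1, 2 and 5, against 5.72, 6.23 and 6.06. DsRed-positive 5 and all DsRed-negative arrays were at or below the control level. The fitted log2 change of 2.64 ± 0.66 (adjusted p = 0.0321) therefore has no reliable size. Against the control level the DsRed-positive mean, array 5 included, was 1.78-fold higher. Rab3b passed the filter only through the DsRed-positive arrays, and its call was lost without any 1 of the DsRed-negative arrays. Its adjusted p ranged from 0.00666 to 0.237 over the 15 alternatives in which it was tested. Rab3d, a Rab of secretory granules, had a value of 1.53 ± 0.52 on its brightest probe set (adjusted p = 0.0856), with 12.05, 12.62 and 12.10 against 11.05, 11.48 and 9.65. All 4 Rab3d probe sets had values above 0, from 0.96 to 3.41, and the largest was called higher. Its size rests partly on DsRed-negative 2 and 5 (7.30 and 6.20), which were at or below the control level. Rab27a (0.36 ± 0.32) and Rab3a, the synaptic vesicle Rab (-1.10 ± 0.50), did not pass.

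**Figure D2:**
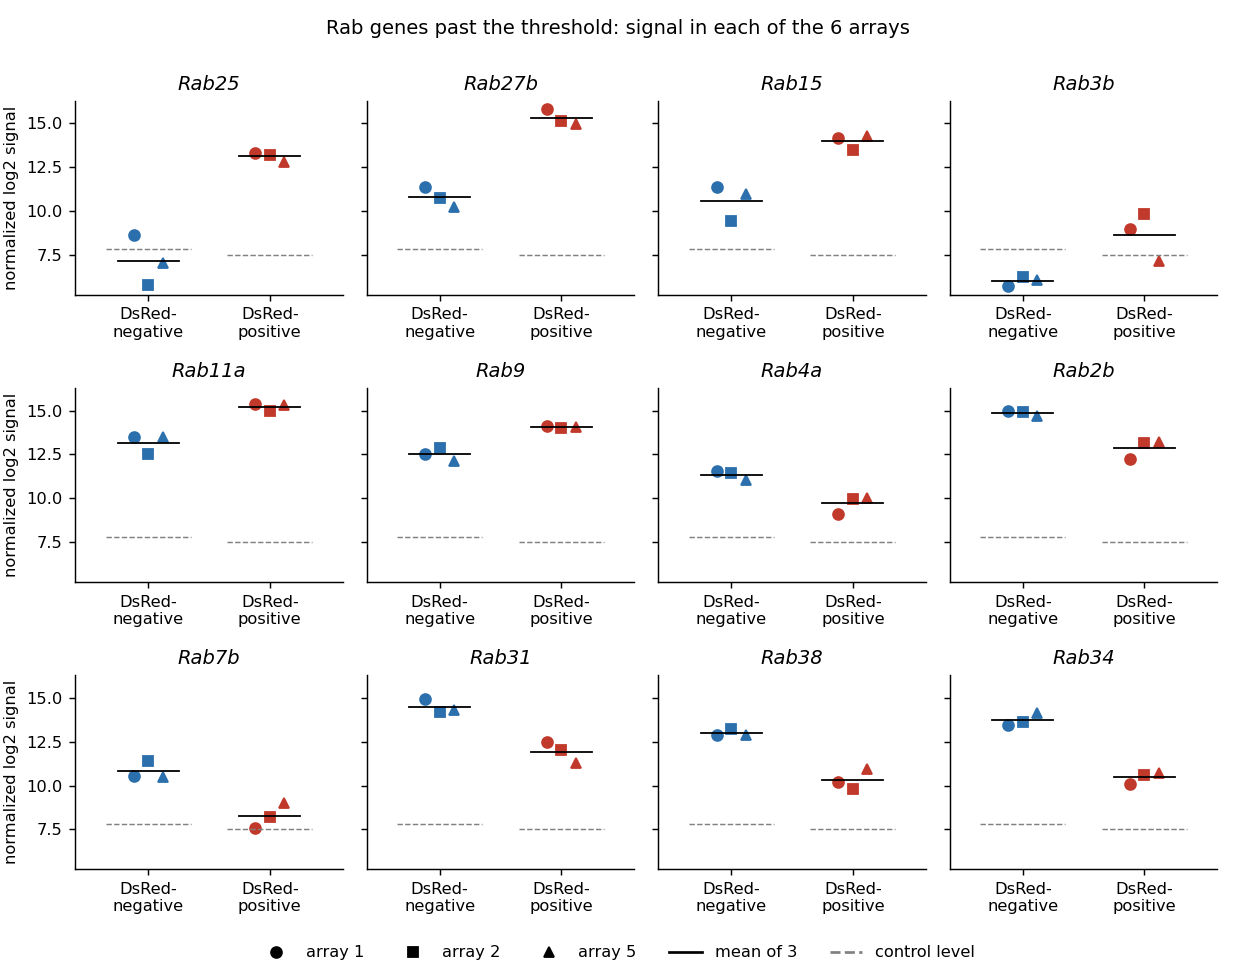
Normalized log2 signal of the 12 called Rab genes in each of the 6 arrays (circle, square and triangle for arrays 1, 2 and 5), with the mean of each group (black line) and the group's mean control level (grey dashes). The groups do not overlap in any panel, but the genes were called on these same values, and 43.4% of all genes do not overlap. DsRed-negative 2 and 5 of Rab25 and 4 of the 6 arrays of Rab3b lie at or below the control level.

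Late endosomal and lysosomal Rabs moved both ways: 1 of 6 tested was higher and 2 were lower, with a median log2 change of -0.43. Rab9, which returns receptors from late endosomes to the Golgi, was the higher one, at 14.15, 13.99 and 14.04 in DsRed-positive arrays 1, 2 and 5 against 12.55, 12.86 and 12.11. The DsRed-positive values lay within 0.2 of each other, and the change was 1.56 ± 0.34 (SE), or 2.94-fold (adjusted p = 0.0190). This call was lost without any 1 of the DsRed-positive arrays (adjusted p up to 0.0815 without number 1, and 0.00298 to 0.139 over 20 alternatives).

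Rab38, known for the biogenesis of melanosomes and other lysosome-related organelles, read 10.19, 9.82 and 10.96 in DsRed-positive arrays 1, 2 and 5 against 12.90, 13.23 and 12.91 in the DsRed-negative ones. The signals were tight in DsRed-negative cells and lower in each DsRed-positive array. On the log2 scale the change was -2.70 ± 0.39 (SE), or 6.48-fold lower (adjusted p = 0.00337). The probe set carries the suffix _x_at, and the only other one gave -1.05 without a call (adjusted p = 0.221). Melanocyte markers gave no call among 4 tested, with summed signals of 913 to 1546 against 2638 to 3176, and Tyrp1 and Mlana were at or below the control level in all 6 arrays.

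Rab7b, which acts between late endosomes and the Golgi, read 7.59, 8.22 and 8.999 against 10.54, 11.40 and 10.51, in the same order of arrays. DsRed-positive 1 lay just above its control level of 7.51, and the groups did not overlap. The change was -2.54 ± 0.47 (SE), or 5.83-fold lower (adjusted p = 0.00950), with a further probe set at -1.04 that did not pass. The related Rab7, the main Rab of late endosomes, had nearly equal signals of 14.87, 14.87 and 14.72 against 14.88, 15.13 and 14.49 (change -0.01 ± 0.33). Rab24, linked to autophagy, had a value of 1.06 ± 0.34 (adjusted p = 0.0739) with groups that did not overlap, and Rab29 had a value of -0.85.

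Early endosomal Rabs had 0 of 10 higher and 2 lower, with a median of -0.06. Rab31, which carries cargo between the Golgi and endosomes, read 12.50, 12.01 and 11.30 in DsRed-positive arrays 1, 2 and 5 against 14.94, 14.21 and 14.32. Every DsRed-positive array was lower. The change was -2.56 ± 0.43 on the log2 scale, 5.89-fold lower (adjusted p = 0.00601). Its other probe set gave -0.16 and was not called.

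Rab4a, a Rab of fast recycling, read 9.10, 9.98 and 10.04 against 11.57, 11.45 and 11.05, a log2 change of -1.65 ± 0.39 (adjusted p = 0.0257). This was the least stable of the calls. The probe set ends in _s_at, which marks a match to more than 1 transcript, and the other Rab4a probe set gave 0.21. Its call was lost under median centring (adjusted p = 0.0648), with the replicate number as a block (0.0588) and in 5 of the 6 fits without 1 array (up to 0.0956 without DsRed-positive 1), and its adjusted p ranged from 0.00948 to 0.789 over 20 alternatives.

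The core Rab5 genes, which define early endosomes, had values of 0.51 (Rab5a), -0.02 (Rab5b) and -0.08 (Rab5c), none of them called. Rab5b lay at or below the control level in 2 arrays of each group. Rab14, which links the Golgi and endosomes, was bright in both groups (15.86, 15.64 and 15.85 against 15.18, 15.00 and 14.68) with a value of 0.83 ± 0.32 (adjusted p = 0.123). Its 7 probe sets ran from -0.86 to 0.98 with no call. Rab20, Rab21, Rab22a and Rab4b had values between -0.48 and 0.22.

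Among Rabs of the ER and Golgi, 0 of 13 tested were higher and 1 was lower, and the median was 0.00. Rab2b, which keeps the Golgi in shape and serves early secretion, read 12.26, 13.14 and 13.23 in DsRed-positive arrays 1, 2 and 5 against 14.98, 14.93 and 14.70. The DsRed-negative arrays were closely alike and DsRed-positive 1 was the lowest. The change was -1.99 ± 0.38 (SE), or 3.97-fold lower (adjusted p = 0.0108). Of 5 Rab2b probe sets 2 were called lower (-1.99 and -1.17), and the others gave -0.66, -0.18 and 0.05. Without both arrays of any 1 number the call was lost (adjusted p up to 0.0934, without number 1), and so it was with the mean of all 5 probe sets. Over 20 alternatives its adjusted p ranged from 0.00131 to 0.0934.

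The general secretory Rabs had small differences on their brightest probe sets. Rab1a, which drives ER to Golgi transport, had the values 16.36, 15.92 and 16.19 against 16.17, 15.85 and 15.92, a change of 0.18 ± 0.32. Rab2a had a change of 0.00 ± 0.35, Rab6a of -0.03 ± 0.34, Rab18 of 0.25 ± 0.38 and Rab1b of 0.54 ± 0.33. On these probe sets the groups overlapped except for Rab1b. Other probe sets gave up to 1.11 (Rab1a), 1.36 (Rab2a) and 1.09 (Rab18, adjusted p = 0.0528), none of them called. Rab2a also had 1 at -0.58. Rab39b, a Golgi Rab of neurons, had a value of -1.18 ± 0.42 (adjusted p = 0.1002). All DsRed-positive arrays and DsRed-negative 1 and 5 were at or below the control level, so the size of its change is not reliable. It passed the threshold where the deposited values were left unnormalized. Rab19, Rab30, Rab33a, Rab33b, Rab36 and Rab43 had values from -0.999 to 0.81.

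Of the 6 Rabs in the group of cilium and other functions, 1 was lower, and the median was -0.80. Rab34, which acts in the formation of primary cilia and in the positioning of lysosomes, read 10.10, 10.62 and 10.69 in DsRed-positive arrays 1, 2 and 5 against 13.47, 13.65 and 14.13 in the DsRed-negative ones. All 6 signals were above the control level, and the groups were more than 2 apart on the log2 scale. The change was -3.28 ± 0.36 (SE), or 9.69-fold lower (adjusted p = 9.46e-04), and its other probe set gave -3.09, also called.

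Rab23, a ciliary Rab that restrains hedgehog signalling, had a value of -0.98 ± 0.37 (adjusted p = 0.118), with 10.55, 10.47 and 11.14 against 12.16, 11.53 and 11.42. Rab40b, which joins a ubiquitin ligase through its SOCS box, had a value of -1.38 ± 0.47 (adjusted p = 0.0843). Both had groups that did not overlap. Rab40c had a value of 0.81 on its brightest probe set and was called at least 1.71-fold higher on the other, whose DsRed-negative arrays were all at or below the control level. That other probe set passed the filter only through the DsRed-positive arrays. Rab28 (-0.61) and Rab42 (0.44) did not pass. Rab44, numbered beyond the range of the family as taken here, had a value of -1.72 (adjusted p = 0.128).

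Probe sets of a gene did not always move alike. Of the 104 tested, 11 were called higher and 8 lower, together on 14 genes, beside 17.2% of all probe sets called. The higher ones include those of Rab25 and Rab3b, 1 of Rab27b and 1 of Rab40c, which passed the filter only through the DsRed-positive arrays. Among the 29 members with more than 1 tested probe set, all values had the same sign in 18 and both signs occurred in 11. Of the 12 called genes, Rab34 and Rab11a had all their probe sets called, Rab25, Rab15, Rab3b and Rab9 had 1 probe set each, and the other 6 had at least 1 that was not called.

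**Figure D3:**
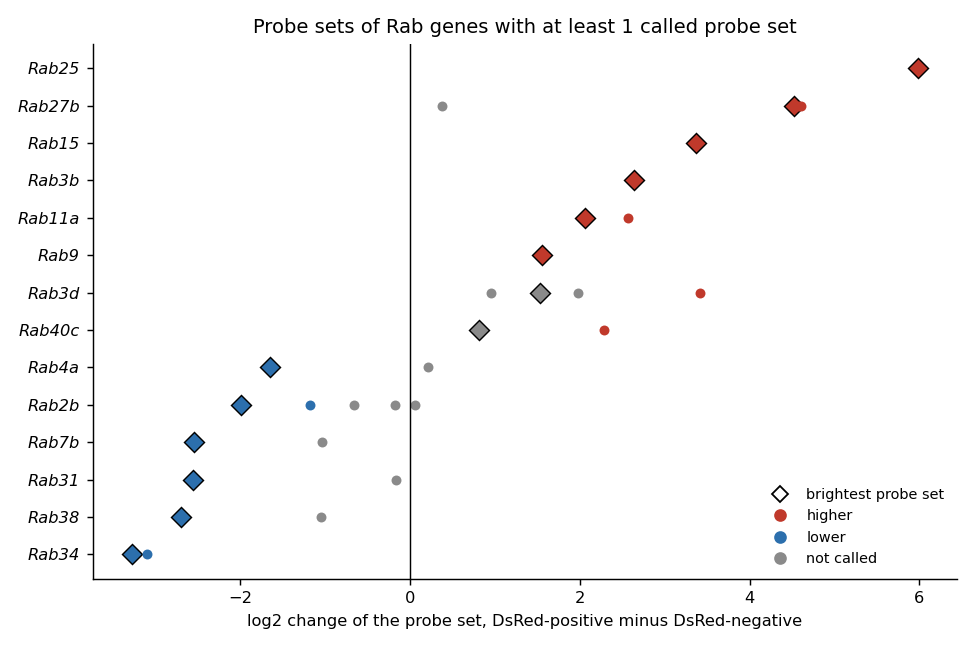
Log2 change of each tested probe set of the 14 Rab genes with at least 1 called probe set (red higher, blue lower, grey not called), with the brightest probe set of each gene as a diamond, as fitted. Among called probe sets, the sizes of Rab3b, 1 Rab27b and 1 Rab40c probe set rest on DsRed-negative signal at or below the control level. Those of Rab25 and the called Rab3d probe set do so in DsRed-negative 2 and 5. Rab34 and Rab11a are called on both of their probe sets, while Rab4a and Rab2b also have probe sets near 0.

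For 21 pairs of related members the difference of their log2 signals was taken within each array, which can show unequal change but compares no levels. Of the 17 pairs with both members tested, the groups did not overlap in 10, each with an exact permutation p = 0.1 (two-sided), the smallest that 3 against 3 arrays can give, and an adjusted p = 0.17 over the 17 pairs. None could pass in this design, no share over other pairs of genes was computed (for single genes 43.4% did not overlap), pairs share members, and the direction follows from the calls above wherever a called gene is in the pair.

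Rab27b minus Rab27a was 6.26, 5.98 and 5.88 in DsRed-positive arrays 1, 2 and 5 against 2.58, 1.82 and 1.22, a difference of 4.16. Rab25 differed by 3.93 against Rab11a and 6.37 against Rab11b, sizes that rest on DsRed-negative 2 and 5, where Rab25 lay under the control level. Rab11a minus Rab11b differed by 2.44. Without a called member, Rab8a minus Rab8b was -1.50, -0.45 and -0.91 with DsRed against -3.67, -3.34 and -2.39 without it, a difference of 2.18.

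Further pairs that did not overlap were Rab7 and Rab7b (2.53), Rab22a and Rab31 (2.08), Rab2a and Rab2b (1.99), Rab40b and Rab40c (-2.20) and Rab3a and Rab3d (-2.63), each as the first minus the second. The groups overlapped for Rab1a and Rab1b, for Rab4a and Rab4b, for Rab33b and Rab33a, for Rab3b and Rab3d and among the 3 Rab5 genes. In 4 pairs (Rab6a and Rab6b, Rab9 and Rab9b, Rab32 and Rab38, Rab39 and Rab39b) a member was not tested.

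**Figure D4:**
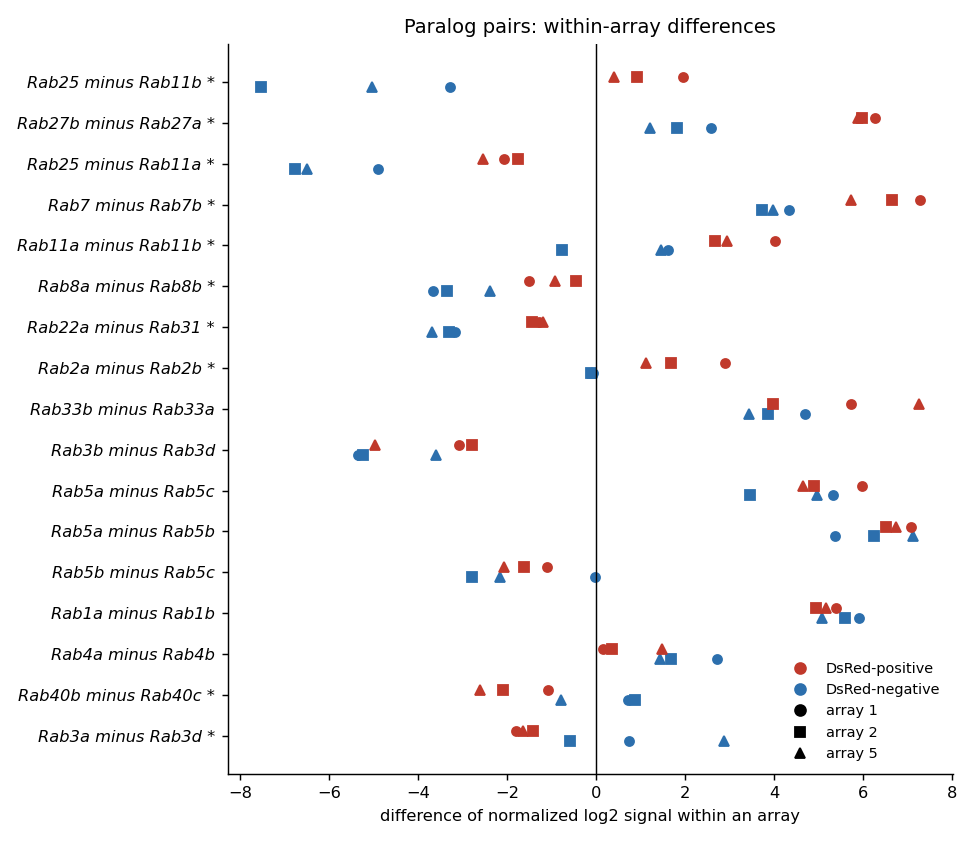
Difference of normalized log2 signal between paralogs within each array, for the 17 pairs with both members tested (red DsRed-positive, blue DsRed-negative, shapes for arrays 1, 2 and 5). Stars mark the 10 pairs whose groups do not overlap, among them Rab27b and Rab27a with a difference of 4.16 between the group means.

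The regulators and effectors of Rabs were counted from 4 lists, which were chosen with earlier results of these data known. No list was tested against all genes. Of 122 tested genes, 18 were higher and 9 lower, and the median log2 change was 0.11. The 27 are 22.1% of those tested (14.8% higher and 7.38% lower), near the 20.5% of all genes (9.21% higher and 11.3% lower). Effectors, the proteins a Rab recruits, gave 11 higher and 3 lower of 42 tested (33.3% called, 26.2% higher), with a median of 0.05. GEFs gave 2 and 4 of 36 (16.7% called, median 0.03) and GAPs 4 and 2 of 38 (15.8%, median 0.23). The genes of prenylation and GDI, which attach Rabs to membranes and take them off, gave 1 and 0 of 6 (median 0.20).

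The 4 effectors with the smallest p were Myo5c, Myo5b, Rilpl1 and Sytl1. The motors Myo5c and Myo5b, which bind Rabs of recycling and exocytosis, were at least 10.8-fold higher (adjusted p = 2.50e-04) and higher by 3.89 ± 0.35 on the log2 scale (adjusted p = 4.49e-04). Sytl1, a Rab27 effector, rose by 3.72 ± 0.43 (adjusted p = 0.00118). Rilpl1, a RILP-like protein that binds ciliary and phosphorylated Rabs, was lower (log2 change -3.23 ± 0.34, adjusted p = 7.82e-04). Myo5c passed the filter only through the DsRed-positive arrays.

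Exchange factors of the Dennd2 group split. Dennd2d (2.86 ± 0.50, adjusted p = 0.00734) and Dennd2c (3.19 ± 0.57, adjusted p = 0.00815) rose, whereas Dennd2a was at least 12.5-fold lower (adjusted p = 2.39e-04), with DsRed-positive signals of 7.23, 7.27 and 7.02 at or below the control level and DsRed-negative ones of 11.13, 11.26 and 11.01, through which alone it passed the filter. Dennd5a was lower at -1.80 ± 0.32. Among GAPs, Tbc1d8 (2.23 ± 0.32), Tbc1d2, a GAP of Rab7 (3.20 ± 0.57), and Grtp1 (2.75 ± 0.52) rose and Tbc1d8b fell (-1.97 ± 0.35).

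In the prenylation list Chml, a Rab escort protein, rose by 2.18 ± 0.41 (adjusted p = 0.00999), at 11.22, 10.37 and 10.09 against 8.28, 8.71 and 8.14. Its relative Chm had a value of 0.11 ± 0.40. Neither Rabggta (0.29), a subunit of the prenylating enzyme, nor Rabac1 (0.47) passed. Without both arrays numbered 1 the calls of Dennd2d, Dennd5a, Tbc1d8, Tbc1d8b and Chml were lost, with adjusted p up to 0.0932, and the 4 lists together had 8 higher and 4 lower. Dennd2c, Tbc1d2 and Grtp1 lost theirs under another alternative (adjusted p up to 0.0572, 0.0549 and 0.0987).

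**Figure D5:**
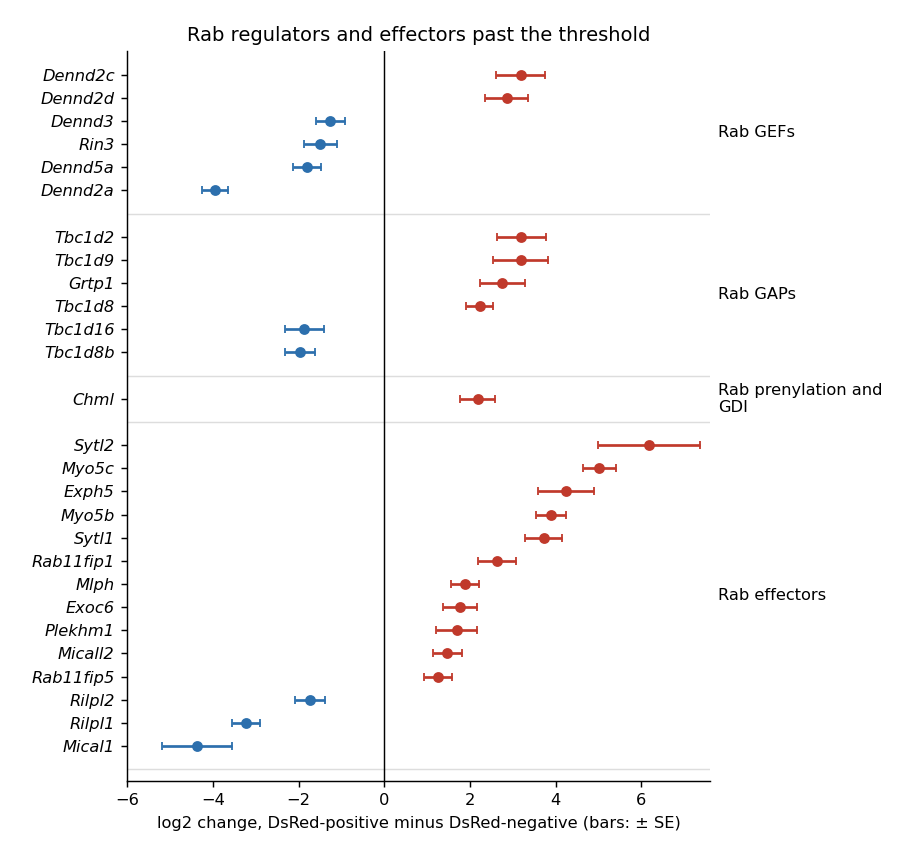
Log2 change (± SE) of the 27 regulators and effectors past the threshold, by list, with red for higher and blue for lower in DsRed-positive cells. Effectors hold 11 of the 18 higher genes and 42 of the 122 tested. Of these effectors 26.2% are higher, beside 9.21% of all genes, a difference that was not tested. The Dennd2 group has members on both sides.

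With both arrays numbered 1 left out (those at odds with the label male), 5 of the 12 Rab genes were still called: Rab25 (log2 change 6.62, adjusted p = 0.0143), Rab27b (4.56, 0.0146), Rab15 (3.67, 0.0494), Rab34 (-3.23, 0.0243) and Rab31 (-2.61, 0.0439). The other 7 kept their direction, with values of 2.14 (Rab11a), 1.53 (Rab9), 2.34 (Rab3b), -2.68 (Rab38), -2.34 (Rab7b), -1.62 (Rab2b) and -1.24 (Rab4a), and adjusted p from 0.0630 to 0.237. Leaving out both arrays numbered 2 kept 7 of the 12 (Rab2b, Rab3b, Rab4a, Rab7b and Rab9 were lost), and leaving out both numbered 5 kept 6 (Rab11a, Rab15, Rab2b, Rab31, Rab4a and Rab9 were lost, Rab15 and Rab31 at adjusted p = 0.0550 and 0.0518). Rab25, Rab27b and Rab34 were called under each of the 20 alternatives tried.

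Levels of cell type markers differed between the same 2 groups, so every called gene lies on the side of some markers. The higher Rab genes lay on the side of the 10 urothelial markers and the lower ones on the side of the fibroblast, smooth muscle, endothelial (1867 to 2426 against 12239 to 16416 in summed signal), leukocyte (2532 to 5572 against 35047 to 47946) and mast cell markers (441 to 609 against 21502 to 32911). Of the mast cell markers, Cpa3, Fcer1a, Ms4a2 and Hdc were at or below the control level in all DsRed-positive arrays. Nerve and Schwann cell markers (0 of 5 tested) and melanocyte markers (0 of 4) gave no call, and the mural marker Rgs5 was higher. The part of these cell types in the Rab differences was not tested.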

How the data were processed

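Bladder epithelial cells of mice at postnatal day 7 were measured on 6 Affymetrix Mouse Genome arrays, 3 DsRed-positive and 3 DsRed-negative, after 2 rounds of amplification, per the labels. The values deposited by the authors are linear probe set intensity. GCOS is the software named by the submitters' processing notes (version and settings: not given in the sources used here). All 6 arrays had a 2% trimmed mean of 1500.01, so the deposited values share 1 scale. Scaling to a common mean does not equalize the middle of the arrays. Medians spanned 0.74 on the log2 scale after adding an offset of 39.84 (the 20th percentile). This was above the limit of 0.2 and led to quantile normalization. The medians were 7.74 to 7.94 in the DsRed-positive arrays and 8.29 to 8.48 in the DsRed-negative ones, so they differed with the groups compared. After quantile normalization the 9 hybridization control probe sets averaged 12.92, 14.14 and 14.29 in DsRed-positive arrays 1, 2 and 5, against 14.32, 15.82 and 15.28. The part of these differences in the results was not tested. The offset shrinks the folds of dim probe sets.

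Of 45101 probe sets, 64 controls were removed and those with a mean above the 33rd percentile (7.18) tested, leaving 30175. Gene names are those of GEO's platform annotation, updated through the gene ID for 34741 of the 34945 probe sets with 1 symbol. Each gene was read from its brightest single-gene probe set. Tests used R 4.3.3 and limma 3.58.1 (lmFit, eBayes, two-sided), checked on simulated data. Few probe sets were changed in the simulation, in both directions, so it does not test normalization under differences as broad as those found here. Errors of changes are SE. Where all arrays of a group lay at or below the control level, folds are against it, while the p-values belong to the fitted change. Genes named were every member past the threshold or under 0.05 before adjustment, members of pairs that do not overlap and the 4 of each regulator list with the smallest p. Other members are given as values. The members and lists were chosen with earlier results of these data known. Alternatives covered scaling, offset, filter, variance model, arrays left out, replicate block and probe set rule.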

Additional observations from a re-analysis of the deposited data

How the results depend on the processing

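With each array centred on its median, 2568 of all genes were higher instead of 1310, 32 regulators and effectors were higher instead of 18, and the median Rab change was 0.29. With the values as deposited that median was -0.25. Leaving out 1 array, or both arrays of a number, gave 3 to 6 higher and 2 to 6 lower Rab genes, 473 to 1272 higher and 772 to 1458 lower genes in all, 8 to 19 higher and 3 to 10 lower regulators and effectors, a median Rab change of -0.18 to 0.13 and 10 to 16 pairs that did not overlap. Leaving out DsRed-positive 1 alone took the higher Rab genes from 6 to 3, with Rab11a, Rab3b and Rab9 lost. Without probe sets ending in _s_at or _x_at, Rab4a turned to 0.21 and Rab38 lost its call at -1.05 (adjusted p = 0.226, and 5.92e-04 to 0.226 over 20 alternatives). The cause of these shifts was not tested. Of 235 values of the 12 called Rab genes under alternatives, 199 kept direction and call, 35 lost the call and 1 reversed. Of 297 for the other 15 named Rab genes, 15 gained a call.

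The labels do not say that a shared number is an animal, so the arrays were not paired in the fit reported above. Deviations of same-numbered arrays correlated at 0.15, 0.04 and 0.05, and each array correlated best with its own number. Both arrays numbered 1 also shared the high Xist and low Eif2s3y signal given above, so the numbers may pair the samples. With the number as a replicate block, 6 Rab genes were higher and 5 lower, and 1067 and 1406 of all genes. Genes near the control level, Rab3b among them, have no reliable size.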
